A study of Homo sapiens with 6 samples.

Results

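The genes described here are those named for proteins of the human mitochondrial ribosome. They are every row of the deposited tables whose symbol is MRPL or MRPS followed by a digit, with pseudogene names left out. This gave 77 of the 13002 listed genes, 48 named for the large subunit (MRPL) and 29 for the small subunit (MRPS), and the 2 pseudogenes MRPL45P2 and MRPS31P5 were left out. Their RNA was sequenced in OCI-AML2, a human line established from acute myeloid leukaemia and described in the labels as an engineered leukaemic stem cell line. All 6 libraries came from cells infected with a lentivirus carrying a short hairpin RNA and kept in puromycin at 2.0 µg/mL for 3 days. The control libraries carried a scramble hairpin, and the 2 knockdown groups carried TAZ shRNA1 or TAZ shRNA2, independent hairpins against TAZ, with libraries A and B in each group. The control columns of the tables carry the name GFP and were taken as the scramble control because the table titles name no other group.

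The mitochondrial ribosome translates the few mRNAs encoded by mitochondrial DNA, all of which specify subunits of the respiratory chain and ATP synthase. Its rRNAs are made in the organelle, while all of its proteins are encoded in the nucleus, made in the cytosol and imported, so the transcripts measured here are those of the imported parts. Acute myeloid leukaemia cells are known for their reliance on mitochondrial translation. TAZ encodes tafazzin, an enzyme of the mitochondrial membranes that remodels the acyl chains of cardiolipin.

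TAZ stood at 11.3 and 11.9 RPKM (reads scaled by gene length and library depth) in the control libraries, 4.02 and 4.1 RPKM with shRNA1 and 1.47 and 2.13 RPKM with shRNA2. All 4 knockdown libraries lay below both control libraries, as their labels say. Reads in listed genes ranged from 18820700 to 20980912 per library, and a member gene had between 250 and 5656 reads. All 7 myeloid and blood cell markers checked were listed. Their summed level was 994 to 1144 RPKM in the control, 5127 to 5662 RPKM with shRNA1 and 3859 to 4622 RPKM with shRNA2. Most of it was LYZ, the lysozyme of monocytes. LYZ stood at 786 and 676 RPKM in the control, 5236 and 4742 RPKM with shRNA1, and 4221 and 3494 RPKM with shRNA2. On the log2 scale, changes with shRNA1 and shRNA2 were 0.06 and 0.14 for the marker SPI1, and 0.14 and 0.05 for CEBPA. They were 0.60 and 0.58 for PTPRC, 0.82 and 0.35 for CD33, and 1.68 and 0.80 for CSF1R. Of 10 markers of T, B, erythroid, epithelial and fibroblast cells, 8 were not listed, and the 2 that were summed to at most 1.44 RPKM in any library. MPO, the granule peroxidase of immature myeloid cells, stood at 11.2 and 10.1 RPKM in the control, 5.16 and 4.63 RPKM with shRNA1 and 1.02 and 1.49 RPKM with shRNA2. The part of these marker changes in the values below was not tested, and bulk RNA cannot tell fewer cells of a type from less RNA per cell. Whether A and B were separate cultures is not labelled, so each p-value reflects only how these libraries varied, possibly for technical reasons. A gene is said below to have fallen or risen where its Benjamini-Hochberg adjusted p was under 0.05 in limma, a linear model fitted to log2(RPKM + 0.5) of all genes.

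Promoter sequences show what the members share in their DNA. The RefSeq promoter table (GRCh38.p14, 250 bases before to 50 after each gene's start) held 69 of the 77 members, but not MRPL10, MRPL2, MRPL13, MRPL15, MRPL21, MRPL23, MRPL35 or MRPS28. Stretches of 100 bases before the start are shown for 3 genes that fell with 1 or both hairpins and hold a motif (MRPS34, MRPL47 and MRPL52). Also shown are 1 that fell and holds none (MRPL1) and 1 of the 2 genes that differed between hairpins (MRPS27, as MRPL10 has no entry). MRPL33 is shown as the member with the highest mean RPKM over all 6 libraries. These genes and the motifs were chosen after the values were seen. Each is written 5′ to 3′ on the gene's strand. Capitals mark matches to CCGGAAG (the ETS and GABP motif, CTTCCGG when read on the other strand) or AAGATGGCG (the YY1 motif) that end before the start. MRPL52 also holds a CTTCCGG match from base -5 that runs past the start and is not in capitals.
MRPS34 (chr16:1773135-1773234, minus strand): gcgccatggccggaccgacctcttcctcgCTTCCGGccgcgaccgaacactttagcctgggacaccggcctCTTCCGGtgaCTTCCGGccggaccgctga
MRPL47 (chr3:179604639-179604738, minus strand): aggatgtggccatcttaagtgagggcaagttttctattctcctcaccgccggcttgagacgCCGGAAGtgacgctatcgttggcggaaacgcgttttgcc
MRPL52 (chr14:22829787-22829886, plus strand): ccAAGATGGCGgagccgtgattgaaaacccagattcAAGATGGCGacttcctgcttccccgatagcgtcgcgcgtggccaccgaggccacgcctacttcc
MRPL1 (chr4:77862730-77862829, plus strand): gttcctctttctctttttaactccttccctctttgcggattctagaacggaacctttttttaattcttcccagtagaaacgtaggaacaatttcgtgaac
MRPS27 (chr5:72320241-72320340, minus strand): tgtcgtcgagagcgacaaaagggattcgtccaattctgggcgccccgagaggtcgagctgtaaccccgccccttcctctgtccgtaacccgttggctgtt
MRPL33 (chr2:27771619-27771718, plus strand): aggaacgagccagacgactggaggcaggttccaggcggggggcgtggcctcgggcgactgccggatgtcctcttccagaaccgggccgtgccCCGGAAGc

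Over the whole window and both strands, CCGGAAG was found in 28 of the 69 member promoters (40.6%), against 19.79% of the promoters of listed genes and 10.67% of all promoters in the table. AAGATGGCG was found in 13 member promoters (18.8%), against 4.05% of listed genes and 1.85% of all promoters, and in no member did a match to it overlap one to CCGGAAG. The NRF1 core TGCGCA was found in 20.3% of members, 13.82% of listed genes and 8.42% of all promoters. The E-box CACGTG was found in 10.1% of members, 10.26% of listed genes and 7.43% of all promoters. Among the members with a promoter entry, CCGGAAG was in 4 of the 20 that fell with either hairpin (20%) and in 24 of the 49 that did not (49.0%). In the same groups AAGATGGCG was in 4 of 20 and 9 of 49, TGCGCA in 3 of 20 and 11 of 49, and CACGTG in 2 of 20 and 5 of 49. MRPS34, whose values were lower than the control's in all 4 knockdown libraries, holds 3 CCGGAAG matches, and MRPL33, whose values were higher in all 4, holds 1. A match is a description of letters and not of binding.

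Levels are given as RPKM, which are scaled by gene length. The libraries still differed in how RPKM depended on length, as described below, so genes of unlike length are compared only roughly. Member genes were well expressed in control cells. Their median control level was 63.5 RPKM, above 88.0% of the 10660 genes that averaged 1 RPKM or more over all libraries, whose median was 10.4 RPKM. The large subunit's median was 71.7 RPKM and the small subunit's 57.2 RPKM, and control levels of members spanned an 18-fold range from 12 to 216 RPKM.

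Over all 6 libraries the most abundant large subunit transcripts were MRPL33 (mean 245 RPKM), MRPL51 (183 RPKM) and MRPL12 (154 RPKM), the last encoding the stalk protein that contacts translation factors. The least abundant were MRPL22 (16.7 RPKM), MRPL30 (16.1 RPKM) and MRPL19 (10.8 RPKM). In the small subunit MRPS15 (107 RPKM), MRPS34 (105 RPKM) and MRPS18B (104 RPKM) led, and MRPS24 (24.2 RPKM), MRPS31 (22.6 RPKM) and MRPS25 (13.3 RPKM) were lowest. In the control, MRPS34 (147 ± 19.7 RPKM, SD, n = 2) stood above MRPS15 (122 ± 12.4 RPKM, SD, n = 2). The control libraries held 161 and 133 RPKM of MRPS34 against 131 and 113 RPKM of MRPS15. With shRNA1 their libraries overlapped, with means of 94.7 and 101 RPKM. In both shRNA2 libraries MRPS34 was the lower, at 85.8 and 61.8 against 105 and 90 RPKM. Their order over 6 libraries was therefore not that of the control.

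The first comparison asked how members differed between cells with TAZ shRNA1 and control cells, and most members had lower values in the knockdown. With shRNA1, 19 of the 77 members fell and 0 rose, 13 of 48 in the large subunit (27.1%) and 6 of 29 in the small subunit (20.7%), where 8.58% of all 10613 genes tested fell and 9.99% rose. In limma at an unadjusted p under 0.05, 38 members were lower and 1 was higher, and limma-voom on recovered reads likewise called 0 higher. Values of 68 members were below 0 on the log2 scale, and both shRNA1 libraries lay below both control libraries for 59 members and above them for 5, against 32.5% and 33.5% of all genes tested. The median log2 change was -0.38 for the large subunit and -0.28 for the small subunit, with all genes at 0.00. All 77 members passed the filter of a mean of 1 RPKM in each comparison, so none was lost to low values.

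MRPL1 fell furthest in this comparison. It encodes the mobile stalk protein beside the site where spent tRNA leaves the ribosome. The control libraries held 95.5 and 86.6 RPKM of it and the shRNA1 libraries 53.0 and 47.2 RPKM. It was 1.81-fold lower (log2 -0.85, SE 0.12, limma adjusted p = 0.00704), and the groups did not overlap.

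MRPL47, near the exit of the peptide tunnel, stood at 163 and 140 RPKM in the control and 89.2 and 87.0 RPKM with shRNA1 (log2 -0.77, SE 0.13, limma adjusted p = 0.00956). MRPL52, a protein without a bacterial counterpart, stood at 42.0 and 32.4 RPKM against 21.7 and 21 RPKM (log2 -0.78, SE 0.15, limma adjusted p = 0.0153). In both genes the knockdown libraries lay close together and well below the lower control library. MRPL11, of the factor-binding centre, fell by 0.68 on the log2 scale (SE 0.15, limma adjusted p = 0.0249), from 93.7 and 71.8 RPKM to 53.2 and 48.8 RPKM.

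Another 7 members fell with shRNA1 and not with shRNA2: MRPL9, MRPL16, MRPL21, MRPL32, MRPL34, MRPS5 and MRPS25, with log2 changes from -0.63 (MRPL34) to -0.46 (MRPL9). MRPS5 lines the entry of the mRNA channel, and MRPL32 is known as the protein that a protease of the inner membrane trims on import. For none of these 7, nor for MRPL1, MRPL47, MRPL52 and MRPL11, did the difference between hairpins pass its own test. MRPL34 was furthest apart, at -0.63 with shRNA1 and -0.09 with shRNA2 (limma adjusted p = 0.184 for the difference).

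These calls depended on single libraries. Without shRNA1 library B, 0 of the 77 members fell in limma at an adjusted p under 0.05 (9 at an unadjusted p under 0.05), without shRNA1 A 7 fell, and without control B 49 fell.

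The second comparison was between shRNA2 and the same control libraries, and most members again had lower values in the knockdown. With shRNA2, 12 of the 77 members fell and 0 rose, 5 of 48 in the large subunit (10.4%) and 7 of 29 in the small subunit (24.1%), where 7.61% of 10659 genes tested fell and 8.12% rose. In limma at an unadjusted p under 0.05, 29 members were lower and 1 was higher, and limma-voom again called 0 higher, with 8 lower in the large subunit in place of 5. Values of 70 members were below 0, and both shRNA2 libraries lay below both control libraries for 41 members and above them for 3, against 31.1% and 31.0% of all genes tested. The median log2 change was -0.32 for the large subunit and -0.36 for the small subunit, with all genes at 0.00.

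MRPL10 fell furthest of all members. It encodes the protein at the base of the stalk that holds MRPL12 and draws translation factors to the ribosome. Its level was 34.4 and 37.3 RPKM in the control (35.8 ± 2.05 RPKM, SD, n = 2), 25.4 and 24.8 RPKM with shRNA1 and 12.5 and 10.2 RPKM with shRNA2. The 3 groups did not overlap. MRPL10 was 1.42-fold lower with shRNA1 (log2 -0.51, SE 0.11, limma adjusted p = 0.0257) and 3.07-fold lower with shRNA2 (log2 -1.62, SE 0.15, limma adjusted p = 0.00245).

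MRPS34 encodes a small subunit protein that bacteria lack and that the small subunit needs for its stability. The control libraries held 161 and 133 RPKM of it, the shRNA1 libraries 106 and 83.3 RPKM and the shRNA2 libraries 85.8 and 61.8 RPKM. It fell by 0.64 on the log2 scale with shRNA1 (SE 0.16, limma adjusted p = 0.0356) and was 2.0-fold lower with shRNA2 (log2 -1.0, SE 0.20, limma adjusted p = 0.0191). The knockdown groups overlapped each other but not the control.

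MRPL2, a core protein next to the site of peptide bond formation, had 74.7 and 66.0 RPKM in the control, 42.6 and 41.0 RPKM with shRNA1 and 42.1 and 38.8 RPKM with shRNA2. Its log2 changes were -0.74 (SE 0.12, limma adjusted p = 0.0093) and -0.79 (SE 0.15, limma adjusted p = 0.0154). All 4 knockdown libraries lay between 38.8 and 42.6 RPKM, below both control libraries. MRPS30, which in spite of its name sits in the large subunit, fell from 40.2 and 40.1 RPKM to 26.3 and 24.2 RPKM with shRNA1 and to 26.9 and 21.4 RPKM with shRNA2.

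MRPL4, MRPL37, MRPS9 and MRPS17 also fell with each hairpin. MRPS17 and MRPS9 encode rRNA-binding proteins with bacterial counterparts, and had log2 changes of -0.60 and -0.40 with shRNA1 and of -0.81 and -0.59 with shRNA2. MRPL4, which reaches into the peptide tunnel, was at -0.45 and -0.60, and MRPL37 at -0.49 and -0.59. With the trend of RPKM with gene length removed, as described below, MRPL4 still fell with shRNA1, while MRPL37 (-0.31, limma adjusted p = 0.0785), MRPS9 (-0.20, limma adjusted p = 0.213), MRPS17 (-0.27, limma adjusted p = 0.089) and MRPS34 (-0.37, limma adjusted p = 0.0656) did not pass; all 5 still fell with shRNA2. The comparisons share their control libraries, so a value in one is not independent of the value in the other.

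A further 4 members fell with shRNA2 and not with shRNA1. MRPL45, which anchors the ribosome to the inner membrane, stood at 55.4 and 59.1 RPKM in the control and 39.8 and 38.0 RPKM with shRNA2 (log2 -0.55, limma adjusted p = 0.0379), against 47.7 and 49.6 RPKM with shRNA1 (log2 -0.23, limma adjusted p = 0.179). MRPS2 was at -0.70 with shRNA2 and -0.25 with shRNA1, and MRPS18B at -0.57 and -0.18. For these 3 genes the difference between hairpins did not pass the test, and MRPS27, described below, was the exception.

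Of these 12 calls, 2 remained without shRNA2 library B (MRPL10 and MRPL2), 5 without control A and 7 without control B or without shRNA2 A. Counting every member, the number that fell was 2 without shRNA2 B, 5 without control A, 15 without shRNA2 A and 16 without control B.

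**Figure D1:**
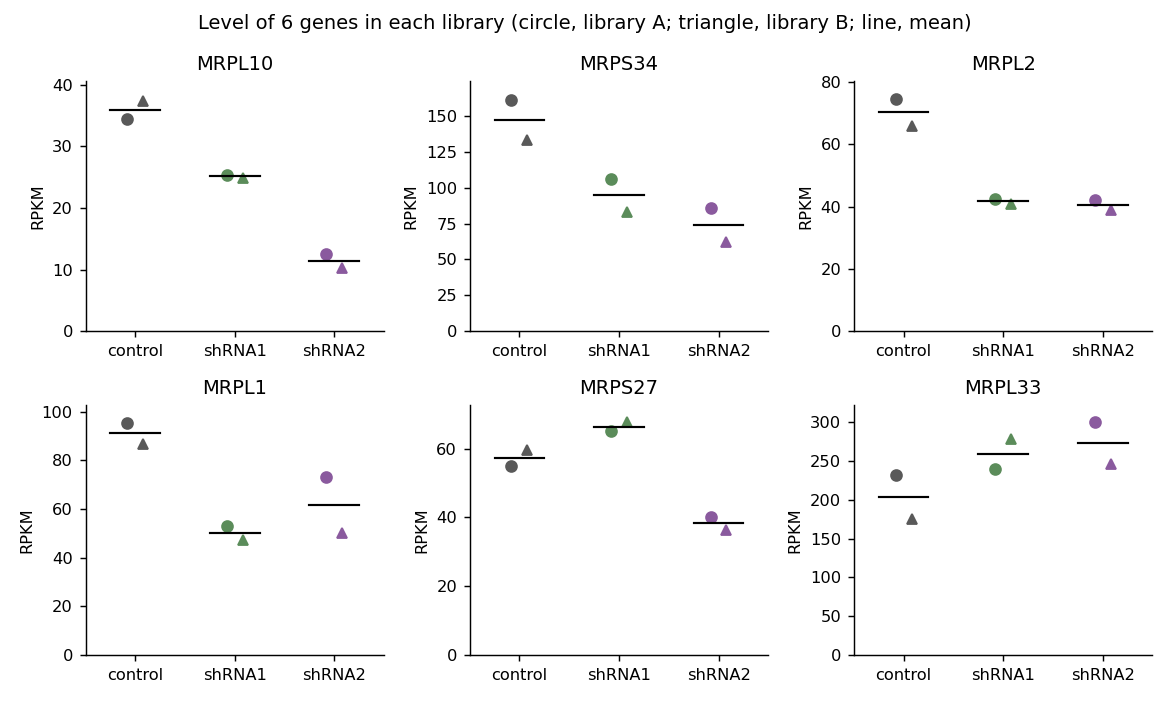
RPKM of 6 member genes (vertical axes, from 0) in the control, shRNA1 and shRNA2 groups; circles are library A, triangles library B and lines the mean of both. MRPL10 steps down from 35.8 to 25.1 and 11.4 RPKM, MRPS27 is lower with shRNA2 only, and MRPL33 is above both control libraries in all 4 knockdown libraries.

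MRPL10, MRPS34, MRPL2, MRPL52 and MRPL1 had the largest mean changes over both hairpins among the 38 members for which all 4 knockdown libraries lay below both controls, 22 of the large and 16 of the small subunit. Of all genes, 19.7% had that arrangement. Only 3 members lay above both controls in all 4 knockdown libraries, against 21.2% of all genes: MRPL33, MRPL49 and MRPS18C. MRPL33 stood at 232 and 175 RPKM in the control, 240 and 278 RPKM with shRNA1 and 301 and 246 RPKM with shRNA2 (log2 0.36 and 0.43, limma adjusted p = 0.173 and 0.193). MRPL49 had 17.9 and 15.2 RPKM in the control, 20.8 and 23.7 RPKM with shRNA1 and 23.3 and 18.2 RPKM with shRNA2 (log2 0.42 and 0.31, limma adjusted p = 0.0725 and 0.247). Neither gene passed the limma test in either comparison. The authors' deposited values called MRPL49 higher with shRNA1 and MRPL33 higher with shRNA2, as given below.

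The members as a group also separated the libraries within a condition. Control A held the highest value of 52 of the 77 members and shRNA2 B the lowest value of 58, where control A was highest for 22.1% and shRNA2 B lowest for 22.2% of all genes. The median member stood 0.11 above the control mean on the log2 scale in control A and 0.11 below it in control B. It stood at -0.30 and -0.33 in the shRNA1 libraries, and at -0.17 in shRNA2 A and -0.51 in shRNA2 B. The medians of all 4 knockdown libraries were therefore below that of control B, with shRNA2 A the nearest. Member transcripts took 0.694% and 0.655% of the reads in listed genes of the control libraries, 0.569% and 0.553% in the shRNA1 libraries, and 0.595% and 0.516% in the shRNA2 libraries.

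**Figure D2:**
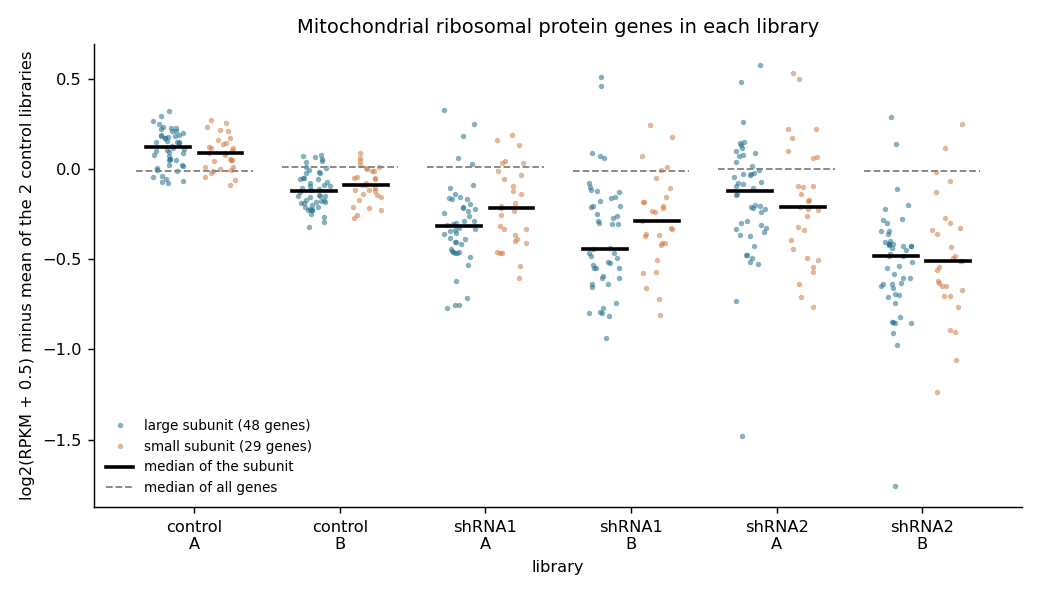
Each point is 1 member gene in 1 library, as log2(RPKM + 0.5) minus the mean of both control libraries; black lines are the subunit medians and dashed lines the median of all genes. The medians of all members are 0.11 and -0.11 in the control libraries, -0.30 and -0.33 with shRNA1, and -0.17 and -0.51 with shRNA2, while the median of all genes stays within 0.01 of 0.

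The large and small subunits were compared by their medians, as a description. The large subunit's median was the lower of the pair with shRNA1 (-0.38 against -0.28) and the higher with shRNA2 (-0.32 against -0.36), so the order was not the same for both hairpins. In control A and B the medians were 0.12 and -0.12 for the large and 0.09 and -0.09 for the small subunit. Both subunits shared that gap between libraries, so it does not measure a difference between subunits. In shRNA1 A and B the large subunit's medians were -0.32 and -0.44 against -0.22 and -0.29 for the small. In shRNA2 A and B they were -0.12 and -0.48 against -0.21 and -0.51. Subtracting each library's trend with length kept the order, at -0.17 against -0.02 for shRNA1 and -0.12 against -0.22 for shRNA2. The ratio of the subunits' median RPKM, large over small, ran from 1.14 to 1.4 over the control libraries, from 0.963 to 1.09 over the shRNA1 libraries and from 1.2 to 1.32 over the shRNA2 libraries. The shRNA1 values lay below those of both other groups, and the shRNA2 values lay between the control values. Large subunit members were the shorter, with a median length of 1175 against 1415 bases. The libraries differed in how RPKM depended on gene length, as described below, and these ratios were not checked against that trend. As a check, MRPS30 and MRPS18A were placed with the large subunit, where both proteins are found. MRPS36, now assigned to a dehydrogenase complex of the citric acid cycle, was left out. On the deposited RPKM this moved no median change against the control by more than 0.01. Between hairpins, shRNA2 against shRNA1, it moved the small subunit's median change from -0.07 to -0.13.

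Groups of members by role are small, and their counts stand beside 8.58% of all genes that fell with shRNA1 and 7.61% with shRNA2. The stalk and its base, where translation factors bind, comprised MRPL10, MRPL11, MRPL12 and MRPL53. All 4 had values below 0 in both comparisons, with medians of -0.48 (shRNA1) and -0.54 (shRNA2), and 2 fell with shRNA1 and 1 with shRNA2. With the gene length trend removed the medians were -0.29 and -0.38. MRPL12, the stalk protein itself, stood at 209 and 164 RPKM in the control, 151 and 122 RPKM with shRNA1 and 159 and 119 RPKM with shRNA2. Its knockdown libraries were all below its control libraries. Its limma adjusted p was 0.102 with shRNA1 and 0.194 with shRNA2.

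Core rRNA-binding proteins with bacterial counterparts were MRPL2, MRPL3, MRPL4, MRPL16 and MRPL27. With shRNA1, 3 of the 5 fell (MRPL2, MRPL4 and MRPL16), and with shRNA2 2 fell (MRPL2 and MRPL4), at medians of -0.45 and -0.41, or -0.32 and -0.30 with the length trend removed, where MRPL16 no longer passed (limma adjusted p = 0.0566). MRPL3, which reaches the catalytic centre, was at 157 and 158 RPKM in the control, 141 and 144 RPKM with shRNA1 and 129 and 108 RPKM with shRNA2. It did not pass the test in either comparison.

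Of 8 proteins at or around the exit tunnel, MRPL47 fell with shRNA1 and MRPL45 with shRNA2, and the medians were -0.36 and -0.43, or -0.12 and -0.25 with the length trend removed. The central protuberance, a crest of the large subunit that faces the small one, was represented by MRPL18, MRPL38, MRPL40, MRPL46 and MRPL48. In limma 0 of the 5 passed after adjustment in either comparison (1 with shRNA1 and 0 with shRNA2 at an unadjusted p under 0.05), and their medians were -0.22 and -0.19. With the length trend removed these medians were 0.05 and -0.05, so the sign turned with shRNA1. MRPL38 stood at 36.8 and 40.4 RPKM in the control and 39.4 and 40.3 RPKM with shRNA1, inside or next to the control range, and at 36.5 and 31.6 RPKM with shRNA2, below both control libraries (log2 -0.18, limma adjusted p = 0.426).

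In the small subunit, 6 proteins of the decoding centre and mRNA channel had medians of -0.20 (shRNA1) and -0.30 (shRNA2), and MRPS5 alone fell, with shRNA1. With the length trend removed the medians were 0.07 and -0.15, so here too the sign turned with shRNA1. MRPS12, the protein of the decoding site known from antibiotic resistance in bacteria, stood at 78.3 and 56.7 RPKM in the control, 64.1 and 59.9 RPKM with shRNA1 and 69.5 and 45.1 RPKM with shRNA2, and the groups overlapped. Of 9 small subunit proteins with no bacterial counterpart, 2 fell with each hairpin, MRPS25 and MRPS34 with shRNA1 and MRPS27 and MRPS34 with shRNA2, at medians of -0.30 and -0.42, or -0.11 and -0.30 with the length trend removed.

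The 3 MRPS18 paralogs, which descend from 1 bacterial protein and sit at different places in the ribosome, had values on both sides of the control. MRPS18B fell with shRNA2 (123 and 121 RPKM in the control, 86.3 and 77.5 RPKM with shRNA2, limma adjusted p = 0.0429). MRPS18C stood at 42.4 and 37.4 RPKM in the control, 44.5 and 45.1 RPKM with shRNA1 and 56.4 and 47.4 RPKM with shRNA2, all above the control, and did not pass the test. MRPS18A was at 40.6 and 41.2 RPKM in the control and between 33.2 and 38.3 RPKM in the knockdown libraries.

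Most members are short, and the libraries differed in how RPKM depended on gene length, so each comparison was checked against that trend. The median length of a member was 1286 bases, against 2933 bases over the 10660 genes, and 80.5% of members but 28.0% of those genes were shorter than 2000 bases. For a gene of 1000 bases, the trend over all genes put control A 0.29 above the mean of the libraries on the log2 scale and control B 0.03 above. It put shRNA1 A and B at -0.08 and -0.14, shRNA2 A at 0.10 and shRNA2 B at -0.19. Control A was the highest and shRNA2 B the lowest library both in this trend and in the members' medians.

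Beside other genes of their own length, the members' medians were the lower in each of the 6 length bins with either hairpin, by a smaller margin than beside all genes in the bins under 2000 bases. With shRNA1, the 24 members of 1000 to 1500 bases (upper bound not included, here and below) had a median log2 change of -0.38 and the other 931 genes of that length -0.25. The 24 members shorter than 1000 bases had medians of -0.38 (under 750 bases) and -0.36 (750 to 1000 bases), close to the -0.31 and -0.32 of other genes. The 6 members of 3000 bases and more (MRPL19, MRPL22, MRPL30, MRPL35, MRPL42 and MRPS25) were all lower, with a median of -0.20, where the 5161 other genes of that length had a median of 0.14. In the bins between, medians were -0.24 against -0.15 (1500 to 2000 bases) and -0.15 against -0.03 (2000 to 3000 bases). The share called lower was not above that of other genes in the shortest bin, at 2 of 14 members (14.3%) against 16.9%, and was close to it at 750 to 1000 bases, at 2 of 10 (20%) against 17.6%. At 1000 to 1500 bases 9 of 24 members fell (37.5%) against 18.8%, and at 1500 to 2000 bases 4 of 14 (28.6%) against 13.6%. In the longer bins 1 of 9 fell (11.1%) against 9.06% at 2000 to 3000 bases, and 1 of 6 (16.7%) against 3.82% above that.

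With shRNA2, the 14 members of 1500 to 2000 bases had a median of -0.40 and other genes of that length -0.13, and all 14 were lower. The 24 members of 1000 to 1500 bases had -0.40 against -0.20. In the bins under 750 and of 750 to 1000 bases, members had -0.29 and -0.32 against -0.19 and -0.25, and the 6 longest members were again all lower, with a median of -0.20 against 0.09. The 9 members of 2000 to 3000 bases had a median close to that of other genes, -0.10 against -0.05, and 5 of 9 were lower against 53.6%. Under 750 bases 1 of 14 members fell (7.14%) against 8.58% of other genes, and at 750 to 1000 bases 0 of 10 against 12.4%. The share was higher than that of other genes at 1000 to 1500 bases, with 4 of 24 (16.7%) against 11.5%. It was also higher at 1500 to 2000 bases, with 5 of 14 (35.7%) against 11.5%, and at 2000 to 3000 bases, with 2 of 9 (22.2%) against 8.76%. At 3000 bases and more 0 of 6 fell against 4.88%.

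**Figure D3:**
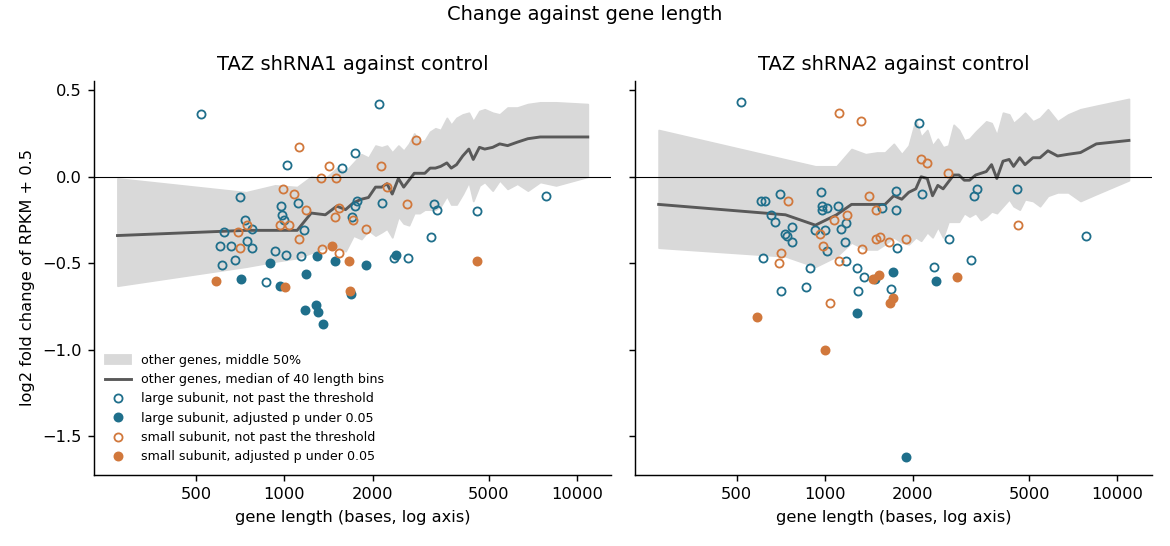
Log2 fold change against gene length (log axis) for shRNA1 (left) and shRNA2 (right): the dark line and grey band are the median and middle 50% of the other genes in 40 length bins, and circles are member genes, filled where the limma adjusted p is under 0.05. The median of other short genes lies below 0, and members of 1000 to 1500 bases have medians of -0.38 and -0.40 where other genes of that length have -0.25 and -0.20.

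When each library's trend with gene length was subtracted, the subunit medians came nearer to 0. With shRNA1 they were -0.17 for the large and -0.02 for the small subunit, and with shRNA2 -0.12 and -0.22, with all genes at 0.00. Values of 56 members were then below 0 with shRNA1 and 58 with shRNA2. With shRNA1, 10 members fell and 3 rose, where 8.94% of all genes fell and 10.7% rose. With shRNA2, 16 fell and 3 rose, where 11.3% of all genes fell and 12.3% rose.

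The 10 that fell with shRNA1 were all among the 19 named above: MRPL1, MRPL2, MRPL4, MRPL10, MRPL11, MRPL47, MRPL52, MRPS5, MRPS25 and MRPS30. The other 9 did not pass once the trend was removed, MRPL9, MRPL16, MRPL21, MRPL32, MRPL34, MRPL37, MRPS9, MRPS17 and MRPS34. With shRNA2 all 12 members named above fell again, and MRPL11, MRPL19, MRPL21 and MRPS26 were added. MRPL10 was at -0.40 with shRNA1 and -1.53 with shRNA2 after the trend was removed, MRPL2 at -0.52 and -0.62, MRPL1 at -0.64 and -0.42, and MRPS34 at -0.37 and -0.80.

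MRPL33, the shortest member at 518 bases, was at 0.70 with shRNA1 and 0.66 with shRNA2 once the trend was removed and rose with both (limma adjusted p = 0.00961 and 0.00607, in a range over all alternatives of 0.000778 to 0.669 and 0.00446 to 0.649). MRPS18C was at 0.42 and 0.56 and rose with both hairpins, and MRPL49 was at 0.49 and rose with shRNA1. MRPS36, counted here by its symbol but left out of the check of the subunits above, was at 0.49 and rose with shRNA2.

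**Figure D4:**
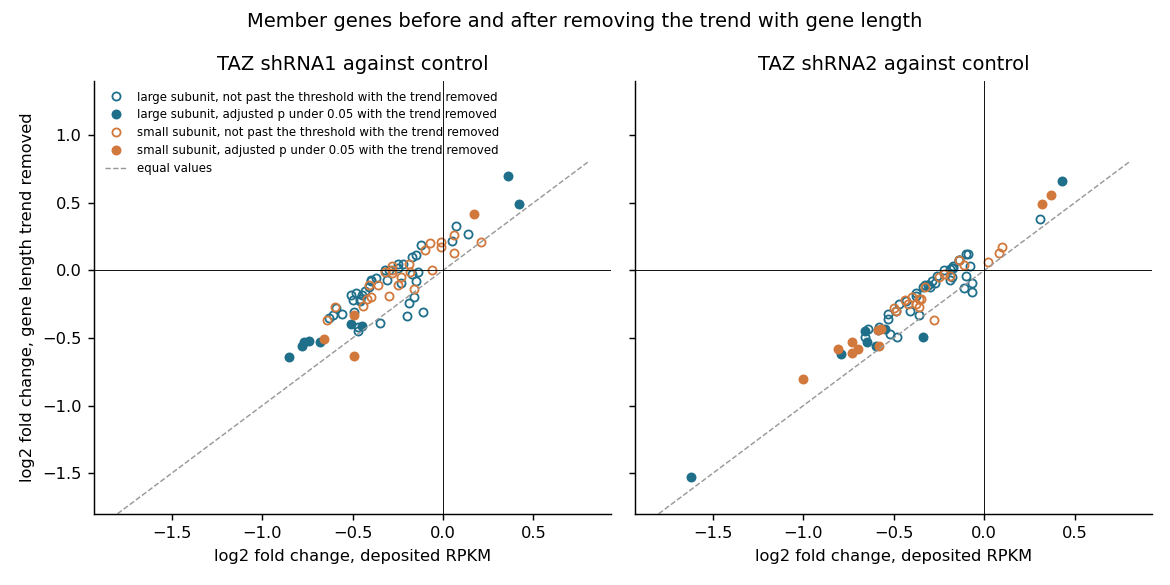
Log2 fold change of each member with the gene length trend removed (vertical) against that from the deposited RPKM (horizontal), for shRNA1 (left) and shRNA2 (right); the dashed line marks equal values and filled circles have a limma adjusted p under 0.05 with the trend removed. Most members lie above the line, nearer to or past 0, while MRPL10 with shRNA2 stays at -1.53.

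The third comparison asked where the hairpins differed from each other, in one fit of all 6 libraries. With shRNA2 against shRNA1, 2 of the 77 members were lower and 0 were higher, where 6.1% of 10660 genes were lower and 4.78% were higher. In limma at an unadjusted p under 0.05, 5 members were lower and 1 was higher, and limma-voom called 2 lower and 0 higher. The median was 0.01 for the large subunit and -0.07 for the small subunit. Values were below 0 for 23 of 48 large subunit members and 19 of 29 small subunit members. The sign of both medians turned with single libraries: they were -0.19 and -0.23 without shRNA2 A, and 0.22 and 0.07 without shRNA2 B.

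MRPL10 was 2.16-fold lower with shRNA2 than with shRNA1 (log2 -1.11, 95% interval -1.42 to -0.81, limma adjusted p = 0.00239). MRPS27, a small subunit protein built of helical repeats that bind RNA, lay on opposite sides of the control: 54.9 and 59.6 RPKM in the control, 65.1 and 67.7 RPKM with shRNA1, and 40.2 and 36.3 RPKM with shRNA2. The 3 groups did not overlap. Its log2 change was 0.21 with shRNA1 (limma adjusted p = 0.217) and -0.58 with shRNA2 (limma adjusted p = 0.0369), and the difference between hairpins was -0.79 (95% interval -1.07 to -0.51, limma adjusted p = 0.00641).

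For the other 75 members a difference between hairpins was not shown, which does not make them alike. For MRPL2 the 95% interval of the difference was -0.33 to 0.23, for MRPS34 -0.81 to 0.08 and for MRPL1 -0.14 to 0.69. With the length trend removed, 7 members were lower with shRNA2 than with shRNA1 and 0 were higher, where 8.98% of all genes were lower and 7.92% higher: MRPL10, MRPL50, MRPS2, MRPS18B, MRPS26, MRPS27 and MRPS34.

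Other genes of mitochondrial translation were taken from 3 lists, whose counts also stand beside 8.58% of all genes that fell with shRNA1 and 7.61% with shRNA2. Of 6 ribosomal proteins that carry other names, ICT1 alone fell, in both comparisons; it encodes a peptide-releasing hydrolase built into the large subunit, and its log2 changes were -0.49 (limma adjusted p = 0.0247) and -0.72 (limma adjusted p = 0.0306). With the length trend removed ICT1 was at -0.21 with shRNA1 and did not pass (limma adjusted p = 0.29), and at -0.51 with shRNA2 it did (limma adjusted p = 0.0346). All 6 had values below 0 with both hairpins, among them DAP3, a GTP-binding protein of the small subunit, at -0.39 and -0.49. With the length trend removed DAP3 fell with shRNA1 (-0.32, limma adjusted p = 0.0469) and with shRNA2 (-0.42, limma adjusted p = 0.0276).

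Of 26 genes for ribosome assembly and rRNA modification, 5 fell with shRNA1 and 9 with shRNA2, and 0 rose in limma with either, adjusted or at an unadjusted p under 0.05, at medians of -0.23 and -0.36. ERAL1, a chaperone of the small subunit rRNA, was at -0.57 and -0.59 and fell with both hairpins, as did TFB1M, a methyltransferase of that rRNA, at -0.56 and -0.76, and RPUSD3 at -0.47 and -0.55. METTL17 and MTG1 fell with shRNA1 (-0.47 and -0.45) and MALSU1, a large subunit assembly factor, fell with shRNA2 (-0.63). These genes were longer than the members, at a median of 2346.5 bases, and their medians with the length trend removed were -0.19 and -0.32. Then 5 again fell with shRNA1 and 10 with shRNA2, and 1 (MPV17L2) rose with shRNA2, but the genes called with shRNA1 were in part others. ERAL1 and TFB1M still fell, while RPUSD3 (-0.24, limma adjusted p = 0.124), METTL17 (-0.34, limma adjusted p = 0.08) and MTG1 (-0.29, limma adjusted p = 0.0951) did not pass, and GTPBP10, RBFA and GRSF1 were added.

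In a list of 16 translation factors and related genes, C12orf65, a factor that rescues stalled ribosomes, fell with both hairpins (-0.57 and -0.66). TUFM, the elongation factor that brings tRNA to the ribosome, fell with shRNA2 (214 RPKM in the control and 138 RPKM with shRNA2, log2 -0.64, limma adjusted p = 0.0382). The list's medians were -0.09 and -0.18. With the length trend removed they were 0.04 and -0.05, so the sign turned with shRNA1. C12orf65 and TUFM then fell with both hairpins. With shRNA2 MRRF (-0.40, limma adjusted p = 0.0497) and LRPPRC (-0.45, limma adjusted p = 0.0323) also fell, and MTIF3 rose (0.44, limma adjusted p = 0.0264). None of the 13 mRNAs that this ribosome translates was listed in the tables, so its products could not be set beside its proteins.

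In the authors' deposited table for shRNA1, 36 members were lower and 1 was higher at an adjusted p under 0.05, where 17.1% of all listed genes were lower and 18.8% higher. In the authors' deposited table for shRNA2, 45 were lower and 3 higher, where 18.9% were lower and 19.9% higher. The member called higher with shRNA1 was MRPL49, and those called higher with shRNA2 were MRPL33, MRPS18C and MRPS36. The authors' deposited table gave MRPL10 a log2 change of -0.52 with shRNA1 and -1.65 with shRNA2.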

How the data were processed

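Per the labels' protocols, total RNA came from a spin-column kit and the library kit keeps strand. Per the submitters' processing notes, the build was hg19 and the tools were edgeR 3.8.6, DESeq 1.18.0, HTSeq 0.6.1p2, TopHat2 2.0.11 and Trim Galore 0.4.0, with no role stated; the strand setting of the counting is not given in the sources used here. The authors deposited 1 table per hairpin with RPKM for 13004 genes in the 4 libraries of that comparison, and the control values were the same in both tables. Per the file headers the authors' own log2 fold changes, p-values with adjusted values, a likelihood-ratio score and an average log2 CPM stand beside them. Without a stated strand setting, overlapping antisense reads cannot be told apart.

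Here 21 date-like symbols were renamed by gene ID and 2 repeated rows dropped. RPKM steps gave whole reads (within 0.01 reads in every library) and whole gene lengths for all 13002 genes; 11508 genes, 75 members among them, had 1 solution in the range searched, and the other 1494 were settled by whole length and average log2 CPM. RPKM denominators were 0.951 to 1.07 times the reads in listed genes.

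Tests used limma 3.58.1 (R 4.3.3) on log2(RPKM + 0.5) with a variance trend, two-sided, for genes averaging 1 RPKM or more, with Benjamini-Hochberg adjustment over all genes tested and a threshold of 0.05. Comparisons with the control used the 4 libraries of each table, and the hairpins were compared with each other in one fit of all 6. Fold changes on this scale understate the change of low genes. The gene length trend was a loess curve (span 0.3) of each gene's deviation from its mean over libraries against log2 length, subtracted per library. Medians over members are descriptions with no test. The fits were also run on simulated counts in which the libraries of a group differed only by depth and random draws. That simulation cannot speak to calls that depend on single libraries. The other alternatives were pseudocounts of 0.1 and 1, no filter or 5 RPKM, quantile normalization, limma-voom on recovered reads, 1 fit of all libraries, a replicate block and leaving out each library.

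Named members were those called in any comparison, the largest changes among those with all knockdown libraries on one side of the control, the 3 highest and 3 lowest of each subunit, and members of described role groups; from other lists, up to 6 called genes with the smallest larger p. The members and lists were chosen with earlier results of these data known. Promoters come from RefSeq on GRCh38.p14, another build than hg19, and no other coordinates are given.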

Additional observations from a re-analysis of the deposited data

Results flagged for a closer look

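A difference between the hairpins passed its own test in 2 members. MRPL10 was lower with shRNA2 than with shRNA1, with a log2 difference of -1.11, and kept an adjusted p under 0.05 in limma under every alternative tried (0.000148 to 0.0387). MRPS27 had a log2 difference of -0.79, and its limma adjusted p ranged from 0.000737 to 0.0885 over the alternatives, above 0.05 without shRNA1 A and without shRNA1 B. TAZ itself was lower with shRNA2 than with shRNA1 (log2 -1.0, limma adjusted p = 0.00801); whether the members' difference goes with the depth of knockdown was not tested.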

How the results depend on the processing

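With the gene length trend removed, 10 members fell and 3 rose with shRNA1, 16 fell and 3 rose with shRNA2, and 7 were lower with shRNA2 than with shRNA1; the medians with shRNA1 were -0.17 (large subunit) and -0.02 (small subunit). Quantile normalization gave 1 higher member with each hairpin and 4 lower between hairpins, and the fit of all 6 libraries gave 20 lower with shRNA2, 11 of them in the large subunit. No label ties the letters A and B to a culture or day; A minus B differences correlated across genes at 0.26 (control and shRNA1), 0.423 (control and shRNA2) and 0.367 (shRNA1 and shRNA2). With the letter as a replicate block, 38 members were lower and 1 higher with shRNA1, 44 and 3 with shRNA2, and 6 and 1 between hairpins. Leaving out each library in turn gave 0 to 49 lower and 0 to 2 higher members with shRNA1, 2 to 16 lower with shRNA2 and 1 to 3 lower between hairpins. It gave shRNA1 medians of -0.48 to -0.23 for the large and -0.34 to -0.17 for the small subunit, the weakest without control A, and shRNA2 medians of -0.48 to -0.12 and -0.51 to -0.21. With 1 library left in a group, its spread was taken from the other groups. No subunit median against the control changed sign under an alternative, and no called member changed direction. Between hairpins the large subunit's median, 0.01, was -0.07 with the length trend removed and -0.19 to 0.22 over the libraries left out. With the trend removed the shRNA1 medians of the central protuberance, the decoding centre, the MRPS18 paralogs and the translation factors were above 0. Other pseudocounts, filters and limma-voom moved no count of called members over both subunits by more than 1.5 times, but limma-voom called 8 large subunit members lower with shRNA2 in place of 5.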
